A study of Danio rerio with 4 samples.

Results

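The extracellular antagonists and modulators of bone morphogenetic protein (BMP) signalling were examined in hearts of zebrafish embryos that overexpressed the ligand gene bmp2b. The members were every probe that the array's annotation assigns to nog1, nog2, nog3, chrd, twsg1a, twsg1b, bmper, bambia, grem2b or fstl1b. This gave 12 probes for 8 of the 10 genes, out of 43603 probes on the array and 15528 genes with a named probe, and no probe was assigned to nog3 or grem2b. Hearts were dissected by hand from embryos of 21 to 23 hours post fertilization (hpf) and pooled, and the number of hearts in a pool is not given in the sources used here. Embryos of the transgenic line Tg(hsp70l:bmp2b)fr13 gave 2 arrays (called Bmp2b here), and wild-type embryos gave 2 arrays (called WT). All embryos, WT included, were heat-shocked at 18 hpf for 30 min at 37 °C. The transgene is driven by the heat-shock promoter hsp70l, which acts throughout the embryo and not in the heart alone.

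BMPs are secreted ligands of the TGF-beta family that signal through receptor kinases and Smad proteins, and in the zebrafish heart they pattern the cardiac field and act in the leftward displacement of the heart tube. Their range is set outside the cell. Noggin and chordin bind the ligand and keep it from its receptors, gremlins of the DAN family do the same, and twisted gastrulation binds both chordin and BMP and can lower or raise signalling. Bmper, also called crossveinless 2, is a chordin-like protein held at the cell surface, Bambi is a membrane pseudoreceptor without a kinase domain, and follistatin-like 1 is a secreted glycoprotein that modulates BMP signalling.

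The arrays differed in brightness, and this bears on every value below. The 75th percentile of raw intensity was 445 and 424 in WT and 93.5 and 250 in Bmp2b. Slides are not named in the labels and were read from the barcodes given there, numbered 1 to 3 here. On that reading the WT arrays lay on slides 1 and 2 and both Bmp2b arrays on slide 3, so slide and genotype cannot be told apart. Among 19 bright probes with 5 spots each, the root mean square difference between the WT arrays was 0.0724 on the log2 scale, below the 0.124 that spot-to-spot variation alone would give. The same figures for the Bmp2b arrays were 0.737 and 0.122. The WT arrays therefore differed by less than the sampling noise, and the calls are also given with their mean counted as 1 sample. The labels were checked with bmp2b, whose raw intensity was 328 and 384 in WT and 4876 and 15659 in Bmp2b. It was high on both arrays labelled as overexpressing it. Of 14 heart muscle markers with a probe, 13 lay above background on all 4 arrays, and myl4 was above background on fewer than 2. Nothing in the labels says that the 2 arrays of a group came from separate clutches, so p-values measure the spread between these arrays, which may be technical.

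Among the 12 probes, the one for twsg1b was lower and the one for nog1 higher in Bmp2b hearts, and the other 10 did not pass the threshold. A call is an adjusted p under 0.05 from limma, a linear model fitted to every probe, with Benjamini-Hochberg correction across the 24454 probes that exceeded background on 2 or more arrays. All 12 member probes were tested, and 9 of them lay above background on all 4 arrays. The 2 called probes are 16.7% of the members, where 15.9% of all tested probes were called (6.82% higher and 9.03% lower), so the share of the members is near that of the array. The WT and Bmp2b arrays did not overlap for 8 of the 12 probes, against 67.6% of all tested probes. These 8 include the fstl1b probe A_15_P134256, whose signal exceeded background in WT only. Its Bmp2b level could not be measured, so its lack of overlap is not read as a change. The log2 fold change was above 0 for 8 of 12, against 45.3% of all tested probes. With the WT arrays counted as 1 sample, limma called 0 of the 12. It called 0 of 12 again when, in addition, the variance prior followed intensity and was estimated robustly (called the trended robust prior below). These fits called 0.00409% and 0.773% of all tested probes. With 2 arrays against 2, an exact permutation test of a probe taken alone cannot go below p = 0.333, two-sided.

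**Figure D1:**
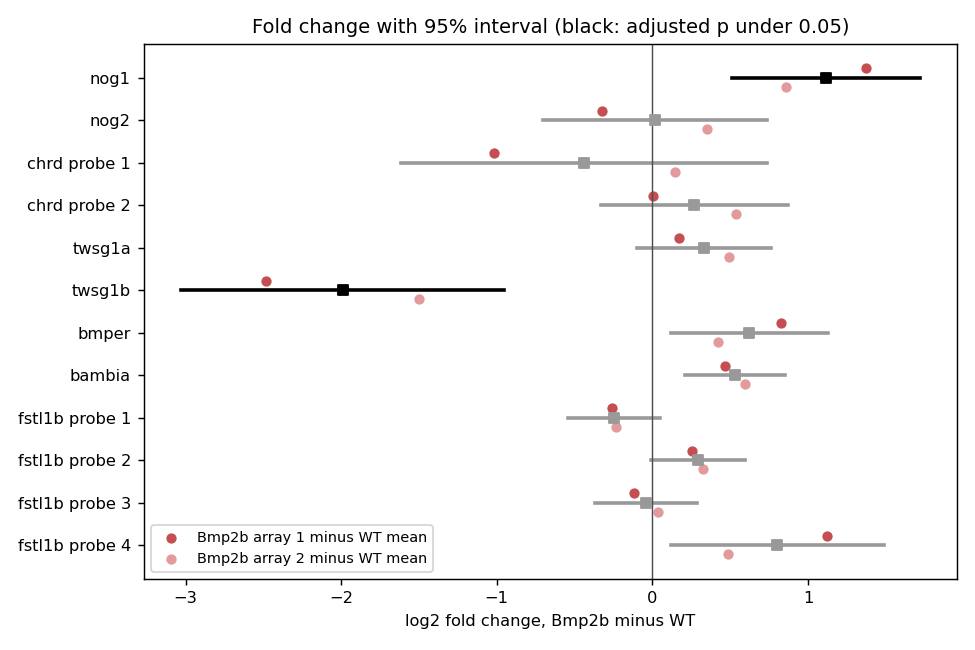
Log2 fold change of each member probe, Bmp2b minus WT, on the horizontal axis, with 1 line per probe. Squares and bars are the limma estimate and its unadjusted 95% interval (black where the adjusted p was under 0.05), and circles give each Bmp2b array against the WT mean; twsg1b stands alone on the left at -1.99 and nog1 has the highest estimate at 1.12.

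twsg1b encodes 1 of the zebrafish twisted gastrulation proteins, and its transcript fell 3.98-fold in Bmp2b hearts. The raw intensity was 17737.5 and 14226 in WT and fell to 522.5 on Bmp2b array 1 and 2994 on array 2. Both Bmp2b arrays lay below both WT arrays before any scaling, by more than the arrays' 75th percentiles differ. After normalization the log2 level was 13.30 and 12.99 in WT against 10.66 and 11.65 in Bmp2b. The log2 fold change was -1.99 ± 0.38 (SE), with a 95% interval of -3.03 to -0.95 and an adjusted p = 0.0436 (limma). Only 0.601% of all tested probes had a lower value. The groups did not overlap, so leaving out 1 array could not turn the sign. Settings that change only the variance, blocks, filter or count of WT samples leave the fold change as it is. Only scaling, background or the intensities used could turn it. The sign was kept in all 17 alternative settings, with values from -2.48 to -1.50. The call was kept in 9 of them, including both fits with 1 Bmp2b array left out, whose spread comes from the WT arrays alone. Calls over all tested probes rose in those fits too, so passing there is not read as a result about twsg1b. In other settings the call did not hold. It was lost with the WT arrays as 1 sample (adjusted p = 0.296, and 0.121 with the trended robust prior), without WT array 1 or 2 (adjusted p = 0.327 and 0.263) and with slide as a random block (0.194). It was also lost with scaling to the 75th percentile (0.0682, and 0.0698 for processed intensities) and without the filter on dim probes (0.0773). The gene has 1 probe here, and in pooled hearts fewer cells of a type and less RNA per cell cannot be told apart.

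Its paralog twsg1a did not follow it. Raw intensity of twsg1a was 434 and 406 in WT against 102 and 357 in Bmp2b, and the normalized log2 level was 8.18 and 8.16 against 8.34 and 8.66. The Bmp2b arrays were thus slightly higher after normalization, with a log2 fold change of 0.33 ± 0.16 (SE) that did not pass (adjusted p = 0.210; 95% interval -0.10 to 0.76). A difference between probes on the same array does not depend on a factor that scales the whole array. On raw intensities, log2 twsg1b minus log2 twsg1a was 5.35 and 5.13 in WT and 2.36 and 3.07 in Bmp2b, and normalized levels gave 5.11, 4.83, 2.32 and 2.98 in the same order. The change between the genes was therefore unequal on both scales, by -2.53 for raw and -2.32 for normalized values, and -2.34 for the authors' processed intensities. The groups did not overlap (exact permutation p = 0.333, two-sided, n = 2 and 2, the smallest this design allows).

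nog1 encodes a noggin and was 2.17-fold higher in Bmp2b hearts after normalization. Its raw intensity was 3961 and 4434 in WT, 2135 on Bmp2b array 1 and 4108 on Bmp2b array 2. The raw value was below both WT arrays on Bmp2b array 1 and between them on array 2, so the higher level in Bmp2b appears relative to the rest of each array. Raw intensity over the array's 75th percentile was 8.90 and 10.5 in WT and 22.8 and 16.4 in Bmp2b. The normalized log2 level was 11.14 and 11.33 in WT against 12.61 and 12.10 in Bmp2b, without overlap. As for twsg1b, only scaling, background or the intensities used could turn its sign. The log2 fold change was 1.12 ± 0.22 (SE), with a 95% interval of 0.51 to 1.72 and an adjusted p = 0.0463 (limma), close to the threshold. It stayed above 0 in all 17 alternatives (0.84 to 1.37) and passed in 8. These include both fits with 1 Bmp2b array left out, whose spread comes from the WT arrays alone. Calls over all tested probes rose in those fits too, so passing there is not read as a result about nog1. The call was lost with the WT arrays as 1 sample (adjusted p = 0.360, and 0.249 with the trended robust prior), without WT array 1 or 2 (adjusted p = 0.400 and 0.329) and with slide as a random block (0.196). It was also lost with scaling to the 75th percentile (0.0970, and 0.0744 for processed intensities), with a smaller normexp offset of 16 (0.0517) and without the filter on dim probes (0.0734). Scaling to the 75th percentile moved the median of all tested probes from -0.06 to 0.28, and nog1 lay 0.56 above that median.

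The other noggin on the array, nog2, showed no shared direction on the Bmp2b arrays. Raw intensity was 255.5 and 229 in WT against 52 and 193.5 in Bmp2b, where 50 is the background level of Bmp2b array 1. The normalized log2 level was 7.59 and 7.52 in WT, 7.24 and 7.91 in Bmp2b, so the WT arrays lay between the Bmp2b arrays. The log2 fold change was 0.02 ± 0.26 (SE; adjusted p = 0.972), and its 95% interval of -0.70 to 0.73 leaves room for a change in either direction. Log2 nog1 minus log2 nog2, normalized, was 3.55 and 3.81 in WT and 5.38 and 4.19 in Bmp2b. On raw intensities it was 3.95 and 4.28 in WT and 5.36 and 4.41 in Bmp2b. The groups did not overlap on either scale, but Bmp2b array 2 lay only a little above WT array 2. On Bmp2b array 1 nog2 lay near background, so the difference there depends on the background as well.

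**Figure D2:**
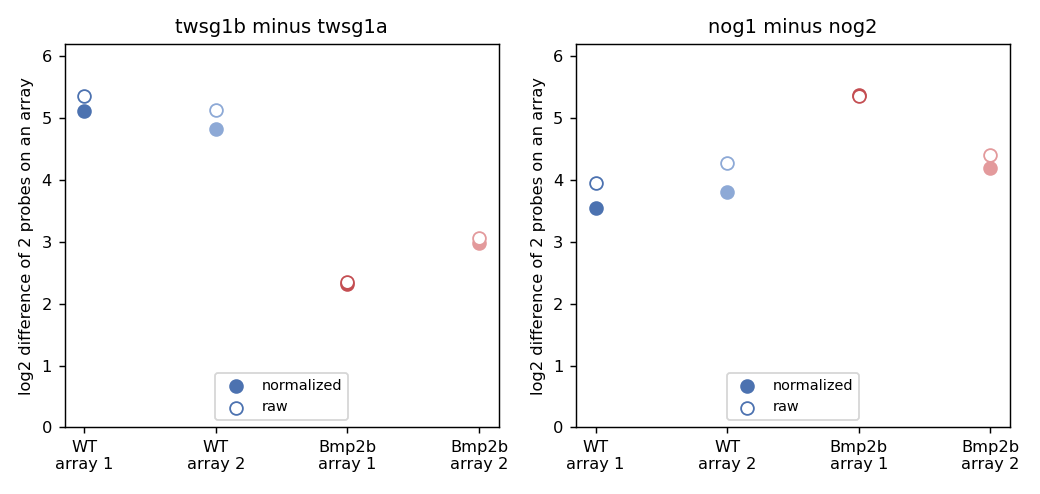
Log2 difference between the probes of 2 paralogs on the same array, for twsg1b minus twsg1a (left) and nog1 minus nog2 (right). Each position is 1 array, filled circles are normalized levels and open circles raw intensities. The normalized twsg1 difference lies at 4.83 or more on the WT arrays and at 2.98 or less on the Bmp2b arrays. The noggin difference is highest on Bmp2b array 1, where nog2 lay near background.

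chrd encodes chordin, the classical dorsal BMP antagonist, and its 2 probes gave opposite signs and did not pass. Both were dim. The probe A_15_P112209 had raw intensities of 98.5 and 115 in WT against 25 and 82 in Bmp2b, and the probe A_15_P118077 had 132 and 139 against 46 and 141. On Bmp2b array 1 both lay below the background level of 50. Normalized log2 levels were 6.71, 6.89, 5.78 and 6.94 for the first and 6.96, 7.05, 7.00 and 7.54 for the second, and in both the groups overlapped. The log2 fold changes were -0.44 ± 0.43 and 0.27 ± 0.22 (SE; adjusted p = 0.504 and 0.427). The sign of the first turned with scaling to the 75th percentile (0.47), and that of the second with the processed intensities (-0.056), so no direction is given for chrd.

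bmper had a higher normalized level on both Bmp2b arrays, but the difference did not pass. Raw intensity was 522.5 and 559.5 in WT against 198 and 432 in Bmp2b, and the normalized log2 level was 8.42 and 8.55 against 9.31 and 8.91. The groups did not overlap, so only scaling, background or the intensities used could turn its sign. The log2 fold change was 0.62 ± 0.18 (SE; adjusted p = 0.0932), a 1.54-fold difference with an unadjusted 95% interval of 1.09-fold to 2.18-fold. It stayed above 0 in all 17 alternatives (0.42 to 0.82) and passed in 3 of them. These were cyclic loess (adjusted p = 0.0474, limma) and both fits with 1 Bmp2b array left out, whose spread comes from the WT arrays alone. Calls over all tested probes rose in those fits too, so passing there is not read as a result about bmper.

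bambia, the gene of the pseudoreceptor Bambi, was bright on all arrays and also did not pass. Raw intensity was 33440.5 and 34207 in WT against 9505.5 and 26435.5 in Bmp2b. The normalized log2 level was 14.22 and 14.25 in WT and 14.70 and 14.83 in Bmp2b. Both Bmp2b arrays lay above both WT arrays, and the Bmp2b arrays differed from each other by only 0.13. The log2 fold change was 0.53 ± 0.12 (SE, limma adjusted p = 0.0555, 95% interval 0.21 to 0.85), just outside the threshold, which it passed in 5 of the 17 alternatives. These include both fits with 1 Bmp2b array left out, whose spread comes from the WT arrays alone. Calls over all tested probes rose in those fits too, so passing there is not read as a result about bambia. The size depended on the scaling: with scaling to the 75th percentile it was 0.25, which is -0.03 against the median of all tested probes under that scaling. The paralog bambib, named after its values were seen, had a log2 fold change of -0.34 ± 0.15 (SE; adjusted p = 0.194).

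fstl1b, for a follistatin-like 1 protein, has 4 probes, and they did not give a common value. The brightest, A_15_P591492, had raw intensities of 17383 and 17401.5 in WT against 7760 and 12864 in Bmp2b and normalized log2 levels of 13.26 and 13.29 against 14.40 and 13.76. Its groups did not overlap, and its log2 fold change was 0.80 ± 0.25 (SE), which did not pass (adjusted p = 0.102). The probes A_15_P247036 and A_15_P531082 were designed to the same cDNA record, so they are not independent. Their log2 fold changes were 0.29 ± 0.11 and -0.04 ± 0.12 (SE; adjusted p = 0.144 and 0.830), the former without and the latter with overlap of the groups. The fourth probe, A_15_P134256, was at 55.5 and 55 in WT and below background on both Bmp2b arrays (33 and 36). Its Bmp2b level is therefore only a bound, and the sign of its difference turned with scaling to the 75th percentile. Its fitted fold change, drawn in the figures, is not read as a change. The paralog fstl1a, also named after its values were seen, had a log2 fold change of 0.11 ± 0.16 (SE; adjusted p = 0.672), which turned to -0.17 with scaling to the 75th percentile.

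**Figure D3:**
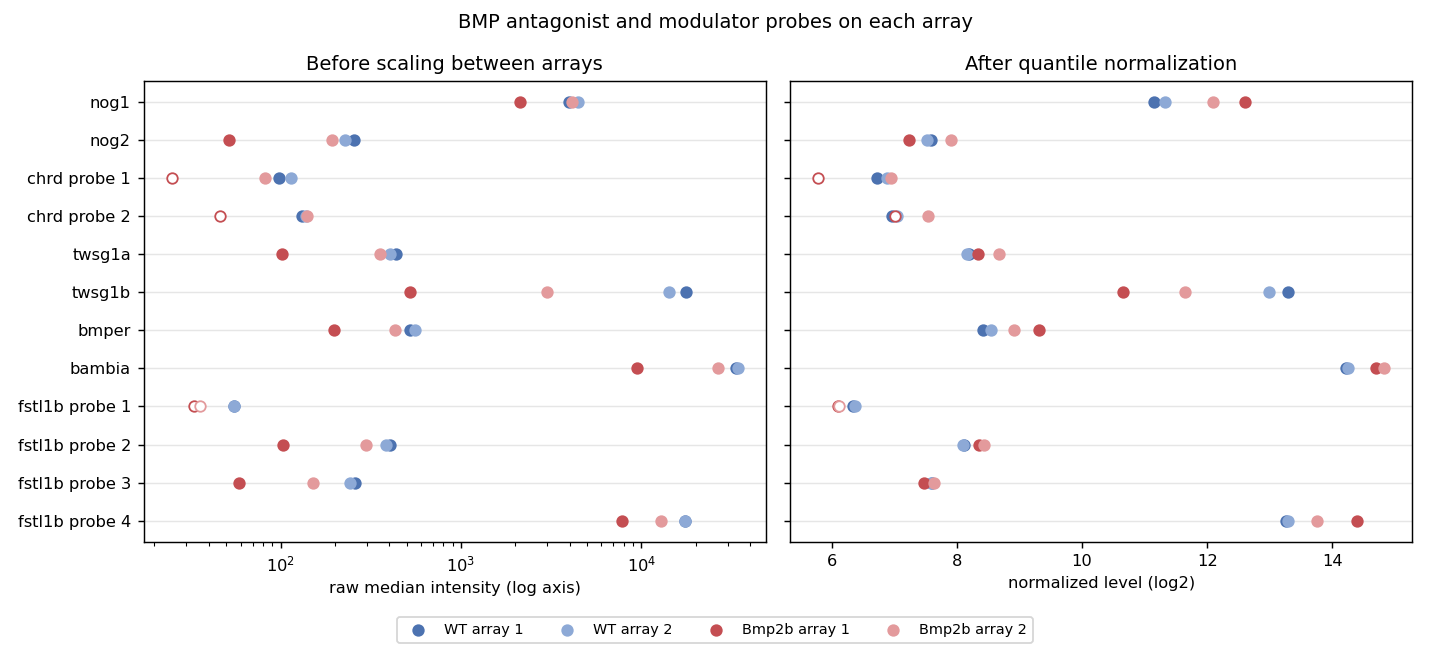
Raw median intensity on a log axis (left) and quantile-normalized log2 level (right) of the 12 member probes, with 1 circle per array; open circles lie below the array's background. Probes of chrd and fstl1b are numbered in the order of their identifiers. Raw values of Bmp2b array 1 are the lowest of the 4 arrays for all 12 probes, twsg1b is lower in Bmp2b on both scales, and nog1 is higher in Bmp2b after normalization only.

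Raw intensity on Bmp2b array 1 was below both WT arrays for 12 of 12 member probes, against 96.2% of all tested probes, and on Bmp2b array 2 for 10 of 12, against 80.1%. The directions given for the members are therefore relative to the other probes of each array. After normalization the Bmp2b arrays still differed from each other by 0.0252 to 1.16 log2 units over the member probes, while the WT arrays differed by 0.0134 to 0.305. The medians of these gaps over all tested probes were 0.291 and 0.0611. Bmp2b array 2 was higher than array 1 for 9 of 12 member probes (49.9% of all tested probes), and nog1, bmper and the brightest fstl1b probe were lower on it. The gap between the Bmp2b arrays was 1.16 and 0.54 for the chrd probes, 0.68 for nog2 and 0.99 for twsg1b.

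Markers of other tissues moved between the Bmp2b arrays too. All 17 neural markers tested were higher on array 2 than on array 1, and log2 of their summed level was 13.35 and 13.36 in WT, 12.34 on array 1 and 14.48 on array 2. Of 7 notochord and axial markers tested, 6 were higher on array 2, with log2 sums of 11.20 and 11.23 in WT and 11.06 and 12.41 in Bmp2b. The notochord gene cmn and the ciliary factor gene foxj1a had a probe but were not above background on 2 arrays. All 7 neural crest markers tested were higher on array 2 (10.57 and 10.55 in WT, 10.80 and 12.86 in Bmp2b), while crestin and snai1b were not above background on 2 arrays. Of 11 epidermal markers tested, 10 were higher on array 2, and cyt1 was not above background on 2 arrays. Their log2 sum was 16.72 and 16.76 in WT and 17.85 and 18.00 in Bmp2b, but krt8 made up most of it. krt8 was at 16.53 and 16.57 in WT and 17.81 and 17.45 in Bmp2b. Against WT, the median log2 fold change of the epidermal markers was -0.48 on array 1 and 1.94 on array 2. Of 14 somite and skeletal muscle markers, 8 were higher on array 2, with log2 sums of 17.16 and 16.81 in WT and 16.35 and 16.07 in Bmp2b. The bright genes acta1b and acta1a made up most of these sums. The log2 fold change was above 0 for 9 of the 14 (median 0.27), against 51.0% of all genes tested. Of 13 heart muscle markers 1 was higher on array 2 (20.11 and 19.99 in WT, 19.84 and 19.39 in Bmp2b). Of 9 blood and endothelial markers 1 was higher on array 2 (14.72 and 14.71 in WT, 14.37 and 13.78 in Bmp2b), and gata1a was not above background on 2 arrays. The log2 fold change was above 0 for 0 of these 9 and for 5 of the 13 heart muscle markers. Calls were made for 33.3% of the former (3 lower) and 38.5% of the latter (2 higher, 3 lower), against 17.2% of all genes tested. In the other tissue lists 0% to 14.3% were called. Against the WT mean, nog1 was at 1.37 on array 1 and 0.86 on array 2, and twsg1b at -2.48 and -1.50. The groups did not overlap for 8 of 12 member probes and 67.6% of all tested probes. The share of the members is near that of the array, so it is not read as a result about them. For those probes the side on which both Bmp2b arrays lay is only described, and only nog1 and twsg1b were called. No direction is given for the fstl1b probe A_15_P134256. That probe was below background on both Bmp2b arrays. The part of these tissues in the member values was not tested.

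The rest of the pathway was read from lists that share only bambia with the members, each gene by its brightest tested probe. Over all 11376 genes tested, 17.2% were called, with a median log2 fold change of 0.01. Among 21 other extracellular BMP regulators tested, 1 was called (4.76%), with a median of -0.20. That gene was fstl5, a follistatin-like gene. Its normalized log2 level was 10.50 and 10.42 in WT against 11.48 and 11.18 in Bmp2b, a log2 fold change of 0.87 ± 0.15 (SE; adjusted p = 0.0387). It lost the call with the WT arrays as 1 sample (adjusted p = 0.370 with the trended robust prior) and with scaling to the 75th percentile (0.126). Its 2 other probes were below background on all arrays. For chrdl2, nbl1, sostdc1b and gpc3 no probe lay above background on 2 arrays.

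Of 14 BMP ligand genes tested, 2 were higher and 1 lower (21.4%), with a median of -0.26. bmp2b rose by 5.91 ± 0.17 on the log2 scale (SE; adjusted p = 0.0116) and was the ligand with the largest change among those tested. Whether its probe reads the transgene, the native gene or both is not stated in the sources used here. bmp16, a ligand gene close to bmp2 and bmp4, had normalized log2 levels of 9.25 and 9.45 in WT and 8.17 and 8.32 in Bmp2b, and was 2.15-fold lower (adjusted p = 0.0246, limma). That call was lost with the WT arrays as 1 sample (adjusted p = 0.296 with the trended robust prior) and with scaling of raw or processed intensities to the 75th percentile (0.0585 and 0.0565). bmp6 was at 7.57 and 7.60 in WT and 8.45 and 8.93 in Bmp2b, with a log2 fold change of 1.11 ± 0.20 (SE; adjusted p = 0.0395), and it lost the call in the same settings (0.312, 0.0773 and 0.0566). bmp4, a ligand gene of the heart tube, was at 14.79 and 14.83 in WT and 14.80 and 14.05 in Bmp2b, and the groups overlapped.

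Of 17 genes for BMP receptors and Smads tested, 1 was higher (smad1) and 1 lower (acvr1l), which is 11.8%, with a median of -0.09. Normalized log2 levels of acvr1l, for a type I receptor, were 10.69 and 10.60 in WT and 9.31 and 9.26 in Bmp2b. Its dimmer probe, at a log2 fold change of -0.76, did not pass (adjusted p = 0.0988, limma). Normalized log2 levels of smad1, which carries the BMP signal to the nucleus, were 12.92 and 12.89 in WT and 13.63 and 13.77 in Bmp2b. The dimmer smad1 probes, at log2 fold changes of -0.19 and -0.01, did not pass. With the WT arrays as 1 sample and the trended robust prior, acvr1l and smad1 lost the call (adjusted p = 0.198 and 0.342), and slide as a random block left 0 of the 17 called. smad1 also lost it with scaling to the 75th percentile (log2 fold change 0.53, adjusted p = 0.178). The inhibitory Smad gene smad7 was at 10.98 and 10.83 in WT and 10.54 and 10.72 in Bmp2b, and its difference did not pass (adjusted p = 0.224). Of 22 BMP target genes tested, a list that also holds bambia, smad6b and smad7, 7 were higher and 1 lower (36.4%), with a median of 0.64. ved, a ventral homeobox repressor gene, was at 8.30 and 8.32 in WT and 11.97 and 12.33 in Bmp2b. msx1b was at 8.91 and 9.01 in WT and 11.33 and 11.58 in Bmp2b. msx3 was at 9.69 and 9.72 in WT and 11.97 and 11.72 in Bmp2b, and like ved and msx1b it also passed with the WT arrays as 1 sample and the trended robust prior (adjusted p = 0.0406). Without that prior, and with slide as a random block, 0 of the 22 targets were called, so these 3 lost the call there too. id1, for an inhibitor of helix-loop-helix factors, was the target that fell, from 15.26 and 15.15 in WT to 13.74 and 13.87 in Bmp2b (adjusted p = 0.0191, and 0.0962 with the WT arrays as 1 sample and that prior).

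**Figure D4:**
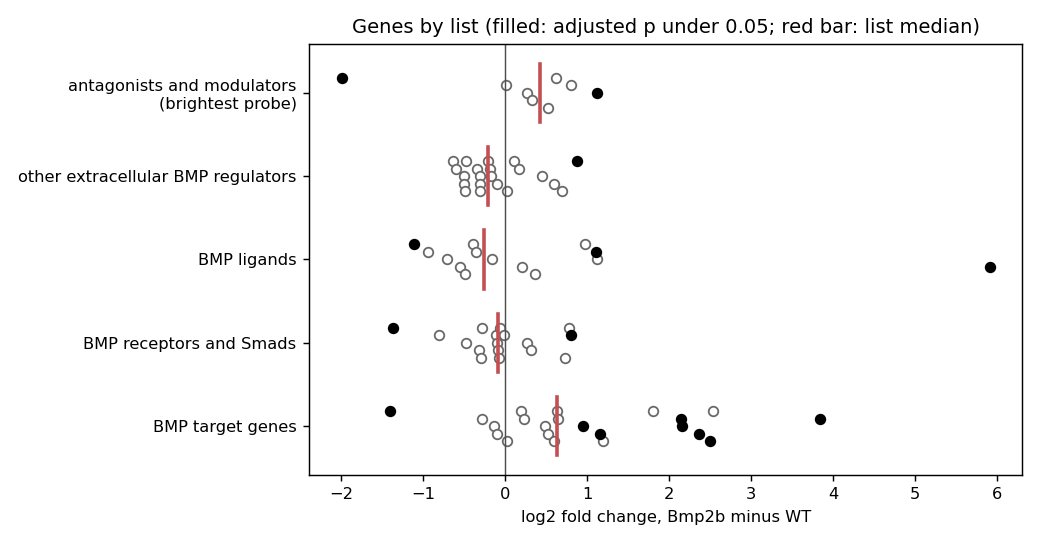
Log2 fold change, Bmp2b minus WT, of each gene tested in 5 lists, by the gene's brightest tested probe. Each circle is 1 gene, filled where the adjusted p was under 0.05, and the red bar is the list's median; twsg1b at -1.99 is the lowest antagonist or modulator, and bmp2b at 5.91 the highest ligand.

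Across the alternative settings, the sign of 7 of the 12 member probes was kept in every setting in which they were tested, namely those of nog1, twsg1a, twsg1b, bmper and bambia and the fstl1b probes A_15_P247036 and A_15_P591492. The other 5, for nog2, chrd and the remaining fstl1b probes, turned in at least 1. Settings that change only the variance, blocks, filter or count of WT samples leave the fold change as it is. Leaving out 1 array cannot turn a sign where the groups do not overlap, as for those 7. Their signs were therefore open only to changes of scaling, background or the intensities used. Scaling to the 75th percentile put the median of all tested probes at 0.28, so most probes were above 0 there. Against that median, bambia was at -0.03, twsg1a at 0.04 and A_15_P247036 at 0.01, so their direction was not kept clearly. On the same measure nog1 was at 0.56, A_15_P591492 at 0.26, bmper at 0.23 and twsg1b at -2.56. The share of all tested probes that kept their sign was not computed.

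**Figure D5:**
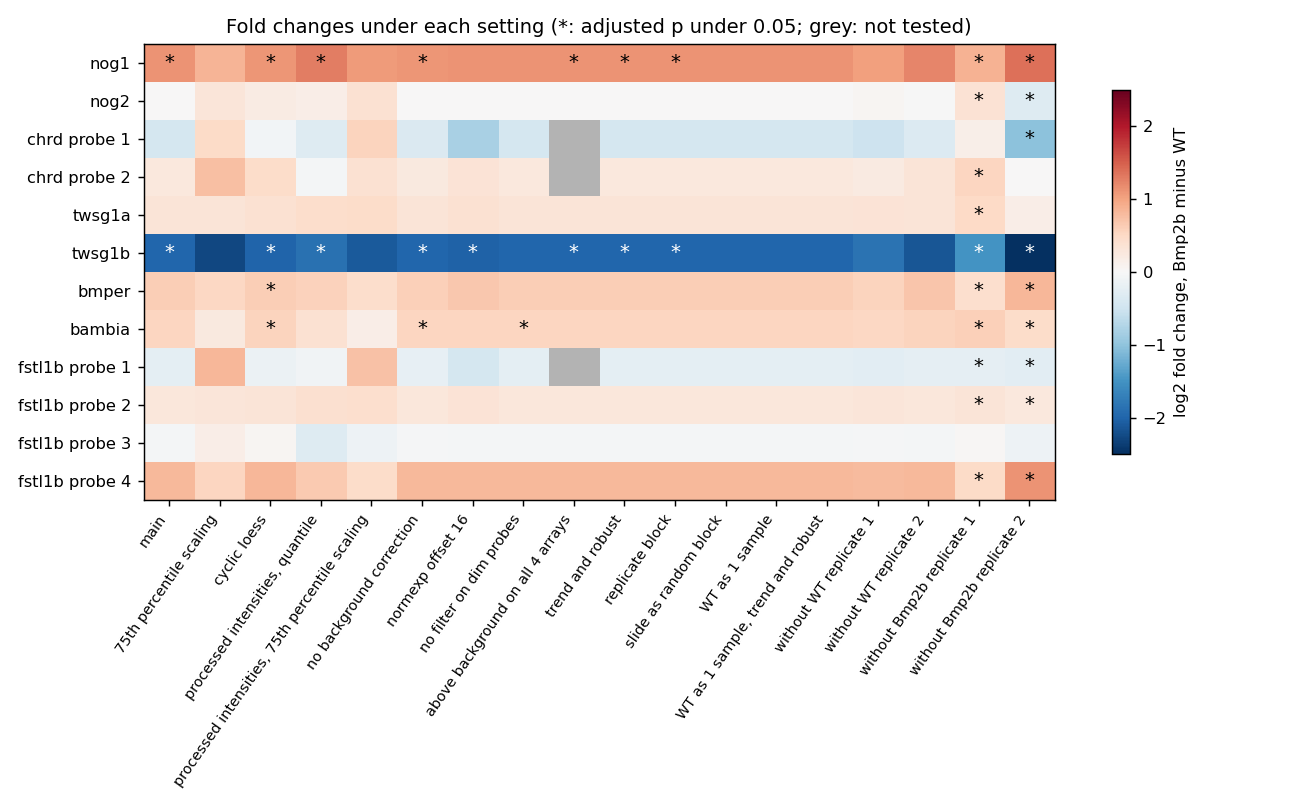
Log2 fold change, Bmp2b minus WT, of the 12 member probes (lines) in the fit of this report, named main, and 17 alternative settings (columns), with red for higher and blue for lower in Bmp2b. Stars mark an adjusted p under 0.05 and grey marks probes that were not tested; only twsg1b is deep blue throughout, and no star stands in the columns with the WT arrays as 1 sample.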

How the data were processed

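RNA from pooled hearts was measured on 4 single-colour (Cy3) Agilent arrays, each from 200 ng of intact RNA (integrity number above 8), per the labels' protocols. The authors deposited raw median intensities per spot (43803 spots, no control spots named), per the file headers, and processed intensities of the same spots, whose background method the sources used here do not give. The submitters' processing notes name Agilent Feature Extraction without a version. Saturation flags were not used here.

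Raw intensities were corrected by normexp (offset 50), put on the log2 scale and quantile-normalized before repeated spots were averaged per probe. Background was 2 times an array's 5th percentile of raw intensity, which was 33 and 32 for WT and 50 and 48 for Bmp2b. Probes above it on at least 2 arrays were compared with limma 3.58.1 in R 4.3.3 (lmFit and eBayes, two-sided). The fit was run on simulated data with equal, independent noise on all 4 arrays. That simulation does not test it under the unequal spread of the WT and Bmp2b arrays. Names came from the platform annotation, in which 23667 probes had 1 symbol, 0 several and 19936 none. Looked up by gene identifier in the RefSeq gene table, 0 symbols changed. The members, gene lists and tests were chosen with earlier results of these data known. Besides every member probe, genes past the threshold were named from the lists, at most 4 in the larger ones, with bmp4, id1 and smad7. The number of arrays limits the precision. Alternatives covered scaling, background, filter, an intensity-trended and robustly estimated variance prior, blocks, WT as 1 sample and each array left out.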

Additional observations from a re-analysis of the deposited data

How the results depend on the processing

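Of the 12 member probes 2 were called. The count fell to 0 under scaling of raw or processed intensities to the 75th percentile, with slide as a random block (assumed correlation 0.5) and with the WT arrays as 1 sample with or without the trended robust prior. It was 4 with cyclic loess, where 4238 of the 24454 tested probes were called, against 3876 in the report's fit. It was 1 with a normexp offset of 16 (twsg1b). Without the filter on dim probes it was also 1, but this was bambia (adjusted p = 0.0443), and nog1 and twsg1b were lost. Leaving out 1 array gave 0 (either WT array) to 10 (Bmp2b array 1). Without a Bmp2b array the spread comes from the WT arrays alone, and the lone array is assumed to vary like them. Calls over all tested probes rose as well in those fits, so their member counts are not read as a result about the members. Where a sign turned, the first chrd probe was at 0.47 and 0.56 with the raw and processed intensities scaled to the 75th percentile, and between -1.02 and 0.14 with 1 array left out. The second chrd probe was at -0.056 with processed intensities. The fstl1b probe A_15_P134256, whose Bmp2b values lie below background, was fitted at 0.82 and 0.73 with the raw and processed intensities scaled to the 75th percentile, and A_15_P531082 was at 0.16 with the raw ones scaled so, at 0.055 with cyclic loess and between -0.12 and 0.036 with 1 array left out. nog2 lay between -0.32 and 0.35 with 1 array left out. Scaling the raw and processed intensities to the 75th percentile put the median of all tested probes at 0.28 and 0.29, against -0.06 in the report's fit. The cause of the turned signs was not tested.

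Of all tested probes 1668 were higher and 2208 lower. With scaling to the 75th percentile 493 were higher and 378 lower (871 in all), with the processed intensities scaled so 892 were called, with slide as a random block 1, with the WT arrays as 1 sample 1, and 189 when the trended robust prior was added. Leaving out 1 array gave 1 to 17027. Higher calls made up 43.0% of calls in the report's fit and 56.6% and 60.9% under these scalings. Among the other extracellular regulators, 1 was called, and 2 with cyclic loess, when every array had to exceed background, with the trended robust prior and when a gene's probes were averaged. It was 0 with both 75th percentile scalings, slide as a block and both fits with the WT arrays as 1 sample, and 0 to 18 with 1 array left out. Among ligands, 3 were called, 1 with both 75th percentile scalings and with the WT arrays as 1 sample and the trended robust prior, 0 without that prior and with slide as a block, and 0 to 11 with 1 array left out. Among receptors and Smads, 2 were called, 1 with both 75th percentile scalings, 0 with slide as a block and both fits with the WT arrays as 1 sample, and 0 to 13 with 1 array left out. Among targets, 8 were called, 5 with processed intensities scaled to the 75th percentile, 0 with slide as a block and with the WT arrays as 1 sample, 3 with the trended robust prior added, and 0 to 18 with 1 array left out.

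The groups share replicate numbers that the labels tie to nothing else, and deviations of same-numbered arrays correlated with r = 0.0935 across probes. With the replicate number as a block, 2 member probes, 5 ligands and 1 receptor or Smad were called; 0 receptors or Smads were higher, so smad1 lost its call. Signal over background limits the chrd probes and A_15_P134256, which lay below background on 1 or both Bmp2b arrays.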
